A study of Homo sapiens with 15 samples.

Results

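The protein-coding genes of human chromosome 21 were followed through BEAS-2B cells exposed to nanoplastics of polyethylene terephthalate (PET-NPLs) and their controls. Members were the rows of the count table that map to protein-coding genes of chromosome 21 in GRCh38 and hold 10 or more reads in at least 7 of the 15 samples. MX1 and genes with symbols that start with COL, RPL, RPS, NDUF or ATP5 were left out. Of 239 annotated protein-coding genes, 223 had a row, 128 reached the count limit and 121 became members, out of 28395 rows in the table. The chromosome was selected on measured values of these samples, namely the shift of its genes over the 6 conditions, so the levels and fold changes of the members, and the calls that the fits across all genes made on them, are given here as a description and support nothing by themselves. All 121 members passed the filter on low counts (16740 genes did in all).

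BEAS-2B is an immortalized line of human bronchial epithelial cells. Cells received 50 µg/mL of PET-NPLs or none, and their RNA was sequenced at 24 h, at 15 weeks and at 30 weeks. There were 2 control and 2 exposed samples at 24 h, 2 and 2 at 15 weeks, and 3 and 4 at 30 weeks, with each control passaged alongside the exposed cells. All groups shared one medium, DMEM with serum, non-essential amino acids and the antibiotic Plasmocin, and the line carries the viral T antigen that immortalized it. The sources used here do not state whether replicates came from separate cultures, so the spread between them may be technical. Per the labels, samples taken at 24 h or 15 weeks belong to one batch while those of 30 weeks belong to another, with nothing on what a batch stands for, so the step from 15 to 30 weeks within an arm cannot be told apart from the batch, while each exposed group and its controls shared a batch.

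Chromosome 21 is among the smallest human chromosomes and is known best from Down syndrome, in which cells carry an extra copy of it. In such cells most of its genes give more RNA, roughly in step with the extra gene copy, while genes under strong control by other signals can depart from that pattern. The chromosome holds 4 receptor genes for interferons and interleukin-10, transcription factors such as RUNX1 and ETS2, the kinase DYRK1A, the amyloid precursor protein APP and the superoxide dismutase SOD1. Copies of DNA were not measured in these files, and whether the number of chromosome 21 copies differed between groups was not tested.

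Each sample held 23143202 to 31459990 assigned reads. A set of 6 small noncoding RNAs took 9.75 to 12.9% of the reads at 24 h and 15 weeks, 22.3 to 31.0% in the 30-week controls and 17.0 to 21.5% in the 30-week exposed samples. Of 9 epithelial markers KRT8 and KRT18 were abundant throughout (means of 150 to 616 CPM and 194 to 353 CPM over the 6 groups). KRT7 was the most abundant at 24 h, with means of 1310 CPM in controls and 1380 CPM in exposed cells, but stood at 18 and 5.84 CPM at 15 weeks and at 1.93 and 1.92 CPM at 30 weeks, and KRT19 went from 11.0 and 10.6 CPM at 24 h to 0.766 and 2.88 CPM at 30 weeks. The defining markers EPCAM and CDH1 stayed below 1 CPM in every group mean and TP63 was at or near 0. The epithelial markers summed to 314 to 411 CPM in the 30-week controls, 880 to 1100 CPM in the 30-week exposed cells and 826 to 2300 CPM earlier, and the mesenchymal ones to 1480 to 2550 CPM. Skeletal muscle markers summed to 318 to 408 CPM in the 30-week controls and to 17.2 to 44 CPM in all other samples. TNNT1 was the largest part, at a mean of 208 CPM in those controls and 12.0 to 33.3 CPM in the other groups. MYOD1 was at 85.3 CPM and CHRNA1 at 47.7 CPM in those controls. MYH3 was lowest there, at 3.16 CPM against 3.49 to 5.47 CPM. TNNT3, TNNC2, MYH8, CKM and MYMK stayed below 1 CPM in every group mean, and MYF5, MYF6 and PAX7 were at 0 in every group. Immune, endothelial and liver markers summed to 6.72 to 31.0 CPM, and those of differentiated airway to 1.20 CPM or less. At 30 weeks exposed replicate 2 lay apart from the other exposed samples for several members, and values without it are given where it matters.

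Promoters were read to show what the members share beside their address. RefSeq start-site windows (GRCh38.p14) were found for 93 of the 121 members, and the 250 bases before the start were used. These windows were rich in CG, with a median of 29 CG dinucleotides (quartiles 21 and 35) and 72% G and C, beside 22 (quartiles 15 and 29) and 65.6% for 10794 protein-coding genes of all chromosomes that pass the same count limit. TATAAA was found on either strand in 3.23% of the members' windows (5.35% of the 10794), GGGCGG in 76.3% (70.4%) and the ETS-type motif CCGGAA in 36.6% (25.7%); over all 27305 genes of the promoter set the shares were 11.1%, 43.8% and 15.2%. The 62 members with a window and a 30-week log2 fold change within 0.25 of the members' median had a median of 28.5 CG dinucleotides (quartiles 21 and 34). Of the 17 members more than 1 away from that median, 10 had a window, with a median of 28 CG dinucleotides and quartiles of 9.25 and 37.5; ADAMTS1 and ADAMTS5 are among those with none. A match is only a string of letters and was not tested as a binding site.

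The windows of 4 members close to the rest of the chromosome and of 2 members far above it are given below as examples, with every CG dinucleotide in capitals. Whether the windows bear on the fold changes was not tested. TTC3 (chr21:37073004-37073253 (plus strand)) shares 182 bases of its window with the divergent gene PIGP, and PCNT (chr21:46323906-46324155 (plus strand)) shares 215 with C21orf58. IFNAR1 (chr21:33324720-33324969 (plus strand)) and DYRK1A (chr21:37366523-37366772 (plus strand)) are typical members, while EVA1C (chr21:32412456-32412705 (plus strand)) and TRPM2 (chr21:44353371-44353620 (plus strand)) showed some of the greatest differences between exposed and control cells at 30 weeks.
TTC3: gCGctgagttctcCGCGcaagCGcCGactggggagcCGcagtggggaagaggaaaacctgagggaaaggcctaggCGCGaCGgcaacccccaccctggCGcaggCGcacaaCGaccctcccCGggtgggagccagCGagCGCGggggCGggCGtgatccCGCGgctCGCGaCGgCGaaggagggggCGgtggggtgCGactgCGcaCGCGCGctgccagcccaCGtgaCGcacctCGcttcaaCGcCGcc
PCNT: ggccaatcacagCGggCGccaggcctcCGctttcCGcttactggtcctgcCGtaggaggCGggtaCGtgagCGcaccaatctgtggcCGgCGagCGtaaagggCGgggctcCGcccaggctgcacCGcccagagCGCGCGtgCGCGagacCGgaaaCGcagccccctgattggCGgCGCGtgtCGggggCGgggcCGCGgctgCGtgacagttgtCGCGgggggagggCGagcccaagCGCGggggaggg
IFNAR1: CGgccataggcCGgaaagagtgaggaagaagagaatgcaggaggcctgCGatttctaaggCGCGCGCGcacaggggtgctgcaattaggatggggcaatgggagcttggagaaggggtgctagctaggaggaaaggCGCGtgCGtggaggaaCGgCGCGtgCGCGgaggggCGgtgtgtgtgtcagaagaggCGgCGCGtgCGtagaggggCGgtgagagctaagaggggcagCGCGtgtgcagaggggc
DYRK1A: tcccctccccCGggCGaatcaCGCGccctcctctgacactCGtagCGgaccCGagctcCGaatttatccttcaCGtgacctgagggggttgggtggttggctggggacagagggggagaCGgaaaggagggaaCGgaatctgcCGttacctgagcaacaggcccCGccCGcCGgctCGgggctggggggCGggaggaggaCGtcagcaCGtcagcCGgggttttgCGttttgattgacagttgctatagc
EVA1C: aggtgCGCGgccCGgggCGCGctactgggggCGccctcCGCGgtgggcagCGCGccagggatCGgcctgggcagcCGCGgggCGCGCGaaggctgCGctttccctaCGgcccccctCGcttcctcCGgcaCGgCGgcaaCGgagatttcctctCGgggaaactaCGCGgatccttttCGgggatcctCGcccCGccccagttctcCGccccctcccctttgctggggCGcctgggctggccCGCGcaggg
TRPM2: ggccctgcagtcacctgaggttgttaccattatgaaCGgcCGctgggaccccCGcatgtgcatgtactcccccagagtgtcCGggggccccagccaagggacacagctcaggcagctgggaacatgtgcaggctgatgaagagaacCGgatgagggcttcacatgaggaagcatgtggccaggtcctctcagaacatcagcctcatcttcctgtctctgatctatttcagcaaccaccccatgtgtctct
The first 5 windows hold 35, 34, 23, 21 and 33 CG dinucleotides, and that of TRPM2 holds 5. The window of SLC37A1, another member far above the rest at 30 weeks, is not printed and holds 39.

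The level of the chromosome in a sample was taken as the median, over the members, of log2 CPM (the count scaled to library size by TMM) less the mean of the 24 h controls. It was -0.040 and 0.040 in the 24 h controls and -0.029 and 0.005 in the cells exposed for 24 h, so these groups overlapped. At 15 weeks it was 0.205 and 0.142 in the controls and 0.466 and 0.426 in the exposed cells. At 30 weeks it was -0.103, -0.147 and -0.144 in the controls and 0.494, 0.449, 0.466 and 0.394 in the exposed cells. Every exposed sample of the late time points thus lay above every control sample of any time point. The chromosome was selected on such a shift, so this is a description only. The pooled SD between samples of a group was 0.0381, which may be technical and is no test of the groups. The values of the 24 h controls mirror each other because their own mean is the reference. The exposed cells stood at almost the same height at 15 and 30 weeks (means of 0.446 and 0.451, or 1.36-fold and 1.37-fold the 24 h controls), and the controls went from 0.174 to -0.131, and both are steps across batches.

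**Figure D1:**
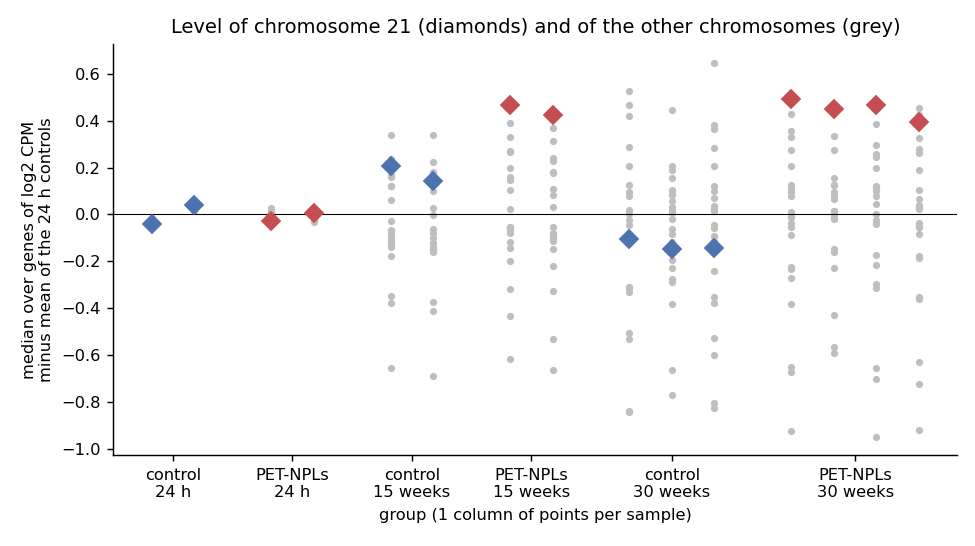
Level of chromosome 21 in each of the 15 samples (diamonds, blue for controls and red for cells with PET-NPLs) and of the other 22 chromosomes (grey points), as the median over genes of log2 CPM less the mean of the 24 h controls. The diamonds of the exposed cells at 15 and 30 weeks lie between 0.394 and 0.494, above all control diamonds.

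By the same counts, the members took a greater share of the library in exposed cells than in controls at 15 and 30 weeks, but not at 24 h. Without the 6 small noncoding RNAs they held 0.7525 to 0.7729% of the reads in the 24 h controls. In the 24 h exposed cells they held 0.7498 to 0.7601%. At 15 weeks the share was 0.898 to 0.931% in the controls and 1.08 to 1.12% in the exposed cells. At 30 weeks the share was 0.643 to 0.728% in the controls and 1.04 to 1.11% in the exposed cells. Fewer cells of a type and less RNA per cell cannot be told apart in such bulk samples.

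At 24 h the members' log2 fold changes between exposed and control cells had a median of -0.02 (quartiles -0.10 and 0.06), against 0.001 over all genes tested, and 53 of 121 were above 0. edgeR's quasi-likelihood test called 0 members higher and 0 lower at an adjusted p below 0.05, as it did for 0% of all genes in either direction. At an unadjusted p below 0.05 it gave 1 member higher and 0 lower, with 0.783% and 0.872% of all genes as the background. DESeq2, limma-voom with and without surrogate variables, and edgeR on this time point alone also called 0 members.

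At 15 weeks the median was 0.24 (quartiles 0.12 and 0.37), a ratio of 1.18, and 101 of 121 members were above 0. The median over all genes was 0.005 with quartiles of -0.15 and 0.16. No member was called higher or lower by edgeR with all 15 samples (0 and 0, background 0% and 0%), and 15 members were higher and 2 lower at an unadjusted p below 0.05, with 2.54% and 2.38% of all genes as the background. DESeq2 called SLC5A3 higher and NCAM2 lower (0.0362% and 0.0868% of its genes), limma-voom called 0 members, and limma-voom with surrogate variables called SLC5A3 higher (0.0358% of genes higher and 0.0478% lower). edgeR on the 15-week samples alone called 21 members higher and 1 lower, where 1.11% and 0.852% of all genes were called. These 2 genes are named after their values were seen. Of the members 85 (70.2%) had both exposed samples above both controls and 9 (7.44%) had both below, with 23.4% and 22.0% of all genes tested as the background.

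At 30 weeks the median was 0.62 (quartiles 0.42 and 0.83), a ratio of 1.54, and 109 of 121 members were above 0. The all-gene median was 0.008 with quartiles of -0.31 and 0.29. edgeR called 80 members higher (66.1%) and 8 lower (6.61%), where 12.0% of all genes were called higher and 11.7% lower. Since this contrast was among the values that selected the chromosome, nothing is read from that excess. In 78 members (64.5%) each of the 4 exposed samples lay above each of the 3 controls and in 8 (6.61%) each lay below, beside 14.3% and 13.0% of all genes. Without exposed replicate 2 the median was 0.60, and 83 members were called higher and 8 lower. The share of all genes called without that sample is not given here, so these 2 counts stand without a background.

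**Figure D2:**
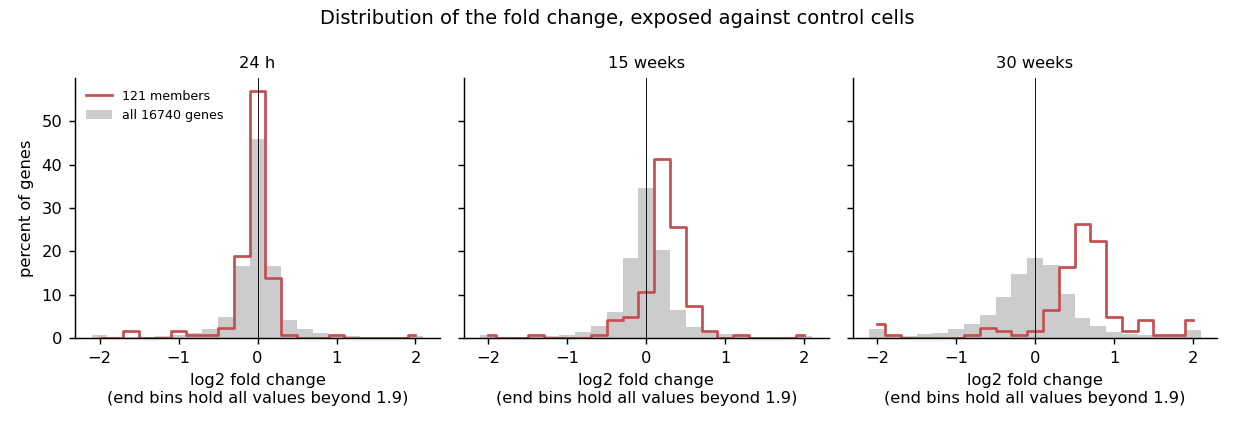
Log2 fold changes between exposed and control cells at 24 h, 15 weeks and 30 weeks for the 121 members (red line) and all 16740 genes tested (grey bars), in percent of each set per bin of 0.2. The red line and the grey bars share their centre near 0 at 24 h, and the line lies to the right of them at 15 weeks (median 0.24) and 30 weeks (median 0.62).

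Most members lay near their own median. At 30 weeks 72 of them (59.5%) lay within 0.25 of it on the log2 scale. Of all genes tested, which include rows that are not protein-coding, 43.5% lay as near to the median of all genes. Such closeness was not particular to chromosome 21, whose quartiles were 0.419 and 0.827. Under the same count limit the quartiles were -0.184 and 0.22 for chromosome 3 and 0.114 and 0.536 for chromosome 13. Those of chromosome 1 were wider, at -0.302 and 0.34. Another 17 (14.0%) lay more than 1 away, 6 above and 11 below. The log2 fold change was above 0 at both 15 and 30 weeks in 95 members, and 102 members had a greater log2 fold change at 30 than at 15 weeks, with a median of 0.37 for the difference. For that difference edgeR called 13 members higher and 8 lower (2.66% and 2.08% of all genes). The number called higher was 24 without exposed replicate 2 of 30 weeks, 8 without exposed replicate 1 and 7 without exposed replicate 3. The shares of all genes called in those fits are not given here. Whether the number moved for the members alone or for all genes thus cannot be told.

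Within each arm over time, the median log2 fold change of the members was 0.20 in controls from 24 h to 15 weeks and 0.46 in exposed cells. From 15 to 30 weeks, across batches, it was -0.37 in controls and 0.10 in exposed cells.

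At 15 and 30 weeks the medians of the other chromosomes between exposed and control cells stayed nearer to 0. They ran from -0.031 to 0.023 at 24 h, and at 15 weeks from -0.102 (chromosome 22) to 0.089 (chromosome 13). At 30 weeks they ran from -0.324 (chromosome 4) to 0.355 (chromosome 13), with 0.208 for chromosome 9 and -0.164 for chromosome 22. In the steps over time other chromosomes moved more than chromosome 21 did. Chromosome 14 had a median of -0.673 in controls and -0.636 in exposed cells from 24 h to 15 weeks, and chromosome 13 one of -0.710 in controls from 15 to 30 weeks. In the 15-week exposed cells none of the other 22 chromosomes lay above chromosome 21 in level, and in the 30-week exposed cells at most 2 did in any sample (chromosomes 9 and 22).

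**Figure D3:**
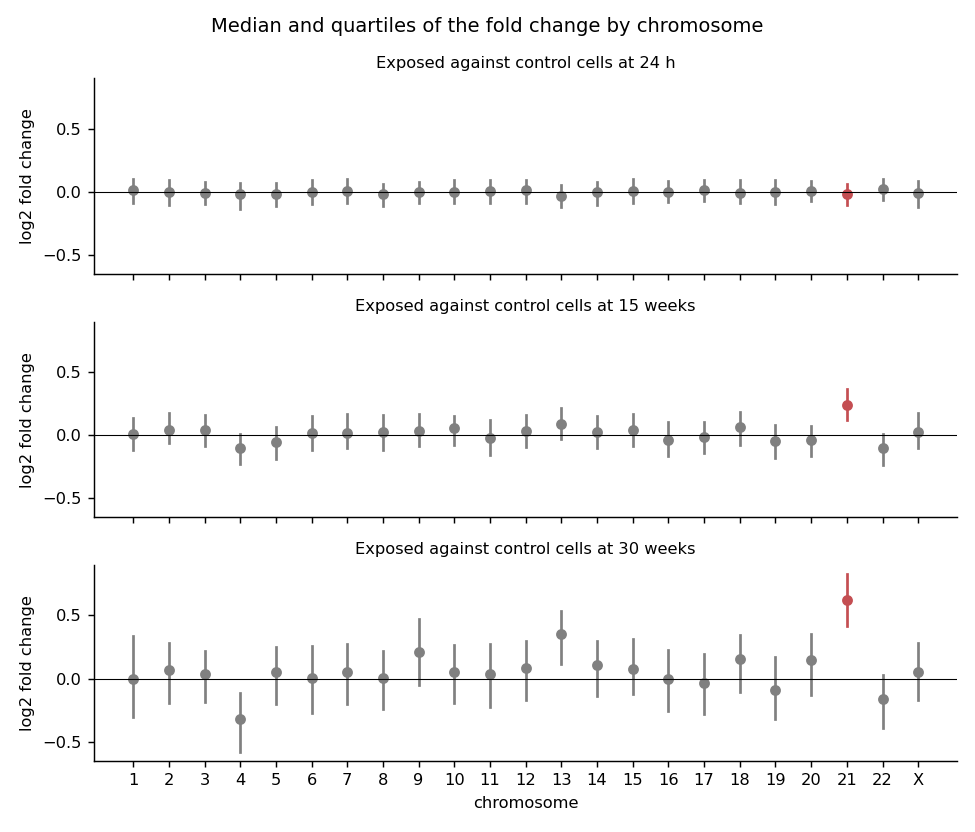
Median (points) and quartiles (lines) of the log2 fold change between exposed and control cells for the genes of each chromosome at 24 h, 15 weeks and 30 weeks, with chromosome 21 in red. Chromosome 21 has the highest median at 15 weeks (0.24) and 30 weeks (0.62), followed by chromosome 13 at 30 weeks (0.355).

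The shift was found along the chromosome, but its first 9 members (chr21:5022531-7772245) are near-identical to long-arm genes. Reads of those genes may be counted there, so these members do not place a shift on the short arm. In 4 bins of 30 or 31 members by start position, from LOC102723996 (chr21:5022531-5046683) to PRMT2 (chr21:46635674-46665124), the 30-week median was 0.52, 0.69, 0.65 and 0.60, and 25 of 31, 28 of 30, 28 of 30 and 28 of 30 members were above 0. At 15 weeks the same bins had medians of 0.24, 0.27, 0.29 and 0.20. In stretches of 5 Mb with 5 members or more, the lowest 30-week median was 0.45 (14 members, MRPL39 to GRIK1, 9 of them above 0) and the highest was 0.71 (26 members, TIAM1 to RUNX1, 25 above 0). The first of these stretches holds ADAMTS1, ADAMTS5, JAM2 and MAP3K7CL, which are described further on.

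**Figure D4:**
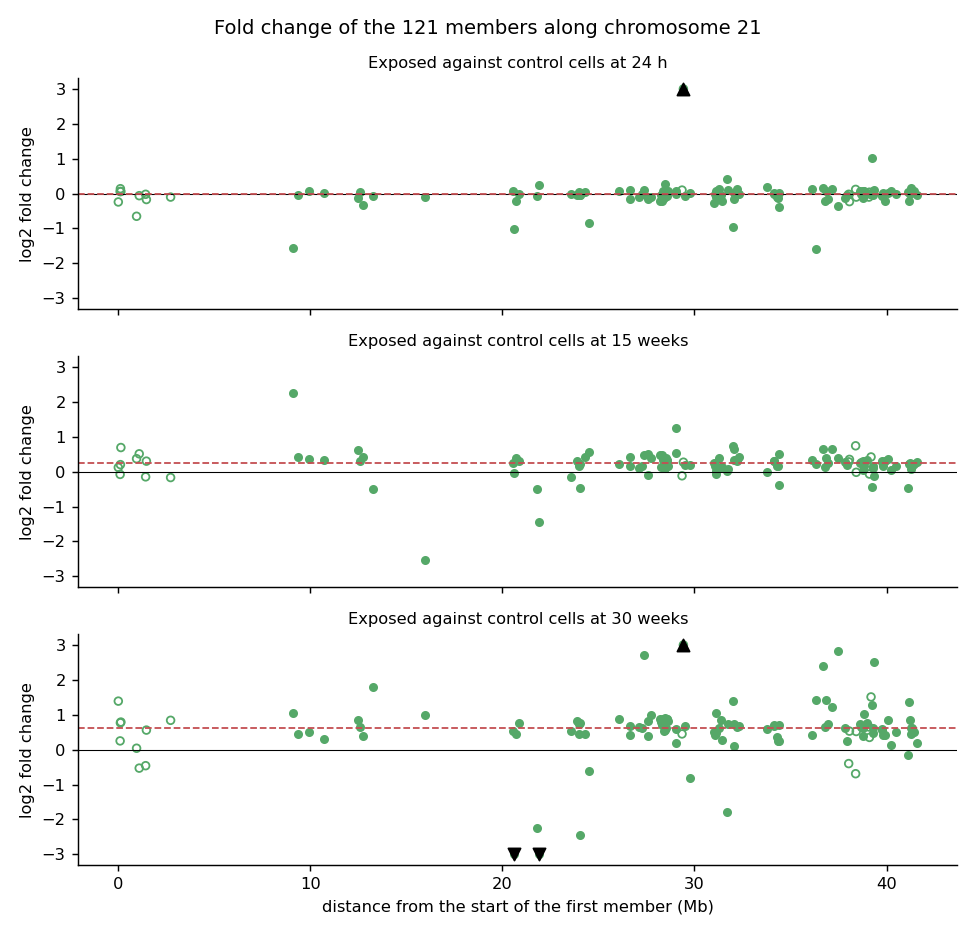
Log2 fold change of the 121 members at 24 h, 15 weeks and 30 weeks against the distance of each gene from the start of the first member, in Mb, with the members' median as a dashed red line and 0 as a black line. Open circles are members with a near-identical copy on the chromosome and black triangles are values beyond 3; most points lie around the dashed line at 15 and 30 weeks, with several of the 14 members from MRPL39 to GRIK1 well below it at 30 weeks and NCAM2 well below it at 15 weeks.

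Near-identical copies make some members uncertain. The 9 members with LOC symbols, all on the short arm, match at 99.06 to 100% identity places on the long arm that hold ICOSLG, GATD3, PWP2, TRAPPC10, HSF2BP, SIK1, CBS, U2AF1 and SMIM11, and KCNE1 has a copy too. How reads shared by such pairs were counted is not stated. The 18 members concerned had a 30-week median of 0.53 and the other 103 one of 0.63. The members at 1 to 10 CPM were more scattered than abundant ones, with 30-week quartiles of -0.50 and 1.09 in 24 members at that level and of 0.44 and 0.76 in the 64 members over 30 CPM, whose median was 0.63.

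The role lists that follow were counted with the calls at 30 weeks, so each count stands beside 12.0% of all genes called higher and 11.7% called lower, and beside 66.1% and 6.61% of all members. The receptor genes come first. IFNAR1 and IFNAR2 encode the chains of the type I interferon receptor, IFNGR2 a chain of the interferon gamma receptor and IL10RB a chain shared by receptors of interleukin-10 and interferon lambda. All 4 were called higher at 30 weeks, with log2 fold changes of 0.72 to 0.88. IFNAR1 (chr21:33324395-33359864) was at 51.6 and 51.5 CPM in the 24 h controls, 51.9 and 36.4 in the 24 h exposed cells, 61.5 and 55.2 in the 15-week controls, and 78.6 and 85.7 in the 15-week exposed cells. The 30-week values were 43.9, 44.1 and 51.2 CPM in the controls and 90.0, 58.7, 71.2 and 86.1 CPM in the exposed cells (log2 fold change 0.72, standard error 0.154). Exposed and control samples of IFNAR1 were thus apart at 15 and 30 weeks and overlapped at 24 h.

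IFNAR2 was at 18.7, 21.4 and 26.4 CPM in the 30-week controls and 48.3, 27.5, 40.4 and 47.1 CPM in the exposed cells (0.88, standard error 0.180). IFNGR2 was at 39.1, 38.6 and 28.7 CPM and at 59.5, 76.9, 65.0 and 58.0 CPM (0.87, standard error 0.133). For both genes the lowest exposed sample was above the highest control. IL10RB had a log2 fold change of 0.80 (standard error 0.132) at 30 weeks, and of 0.14 (standard error 0.169) at 15 weeks, where its samples overlapped. Of 6 further genes linked to interferon or immune signalling 3 were tested. Among these TRPM2, a calcium channel opened by oxidative stress, and ICOSLG, a ligand that co-stimulates T cells, had log2 fold changes of 2.52 and 1.51 at 30 weeks, and the interferon-induced GTPase gene MX2 one of 1.43. The counts of ICOSLG are uncertain because of its copy. TRPM2 and MX2 were low, with means of 1.27 and 2.53 CPM over all samples.

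Among 21 transcription factors and chromatin genes, 11 were called higher at 30 weeks (52.4%, beside 66.1% of all members and 12.0% of all genes) and 2 lower (RUNX1 and SIM2), and the median was 0.53. ETS2, an ETS-family factor, was at 59.8, 56.9 and 54.8 CPM in the 30-week controls and 96.4, 76.9, 83.6 and 85.9 CPM in the exposed cells (0.58, standard error 0.102), whereas at 15 weeks its samples overlapped (-0.02, standard error 0.131). BACH1, a repressor of heme and antioxidant genes, had log2 fold changes of 0.43 at 15 weeks and 0.44 at 30 weeks. HMGN1, a nucleosome-binding protein, was at 0.36 (standard error 0.199) and its samples overlapped, with exposed replicate 2 at 474 CPM and the other exposed samples at 259, 284 and 266 CPM. Its log2 fold change was 0.11 without that sample and 0.21 without control replicate 3.

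RUNX1 (chr21:34787801-35049302), a master regulator of blood formation that is also active in epithelia, went the other way. It was at 54.6 and 36.5 CPM in the 24 h controls, 25 and 28.8 in the 15-week controls and 30.9 and 30.9 in the 15-week exposed cells. After 30 weeks the gene was at 112, 114 and 130 CPM in the controls and 79.0, 50.4, 70.5 and 69.7 CPM in the exposed cells (log2 fold change -0.82, standard error 0.152). Its 30-week controls were the highest of all groups, and the exposed cells of 30 weeks lay above both groups of 15 weeks.

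Of 11 kinases, phosphatase regulators and signalling adaptors 8 were called higher at 30 weeks (72.7%, near the 66.1% of all members) and 2 lower (SIK1 and MAP3K7CL). DYRK1A (chr21:37365573-37526358), a kinase of transcription and cell cycle regulators, was at 114 and 119 CPM in the 24 h controls, 124 and 108 in the 24 h exposed cells, 127 and 123 in the 15-week controls and 167 and 166 in the 15-week exposed cells. At 30 weeks it was at 67.8, 69.6 and 65.8 CPM in the controls and 113, 107, 100 and 111 CPM in the exposed cells (log2 fold change 0.67, standard error 0.0988), and no sample of one group reached the other. RCAN1, an inhibitor of calcineurin, had a log2 fold change of 0.68 (standard error 0.162), which ran from 0.485 to 0.803 with 1 sample left out. Its exposed replicate 2 was at 46.9 CPM and the other exposed samples at 29.7, 29.7 and 29.0 CPM. TIAM1, an activator of the GTPase RAC1, had a log2 fold change of 0.88 (standard error 0.126). RIPK4, a kinase of keratinocyte differentiation, was at 39.4 and 37.9 CPM in the 24 h controls and 11.9 and 10.8 CPM in the 15-week controls. It was at 2.41, 2.27 and 2.86 CPM in the 30-week controls and 14.9, 8.45, 14.6 and 15.2 CPM in the exposed cells (2.40, standard error 0.219).

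**Figure D5:**
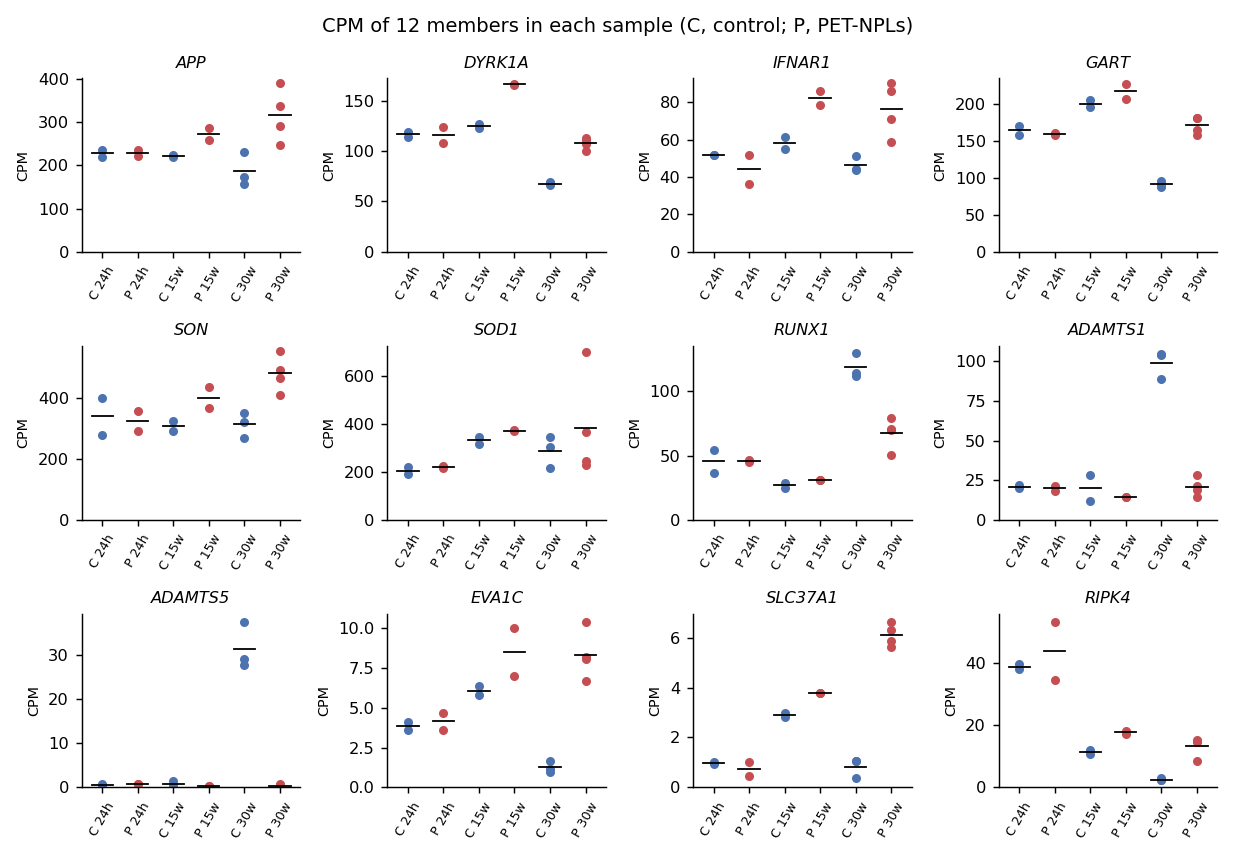
CPM of 12 members in each sample, with 1 point per sample, a black line at the mean of each group and axes that start at 0 (C, control, blue; P, PET-NPLs, red). APP, DYRK1A, IFNAR1, GART and SON have exposed samples above the controls at 15 and 30 weeks, RUNX1, ADAMTS1 and ADAMTS5 are highest in the 30-week controls, and EVA1C, SLC37A1 and RIPK4 are lower in the 30-week controls than in the 30-week exposed cells.

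All 6 measured genes of RNA splicing and processing were called higher at 30 weeks (66.1% of all members and 12.0% of all genes were), with log2 fold changes of 0.53 to 0.98. SON, a large scaffold of nuclear speckles, was at 268, 322 and 353 CPM in the 30-week controls and 558, 412, 467 and 494 CPM in the exposed cells (0.62, standard error 0.156). U2AF1, which recognises the 3′ splice site, was at 0.53 (standard error 0.142), and its counts are uncertain because of its copy. In ribosome biogenesis and translation 7 of 11 genes (63.6%) were called higher and 0 lower (median 0.61), and in protein folding, ubiquitin and proteasome 8 of 11 (72.7%) were called higher and 0 lower (median 0.64). CCT8, a subunit of the chaperonin that folds actin and tubulin, was at 172, 192 and 154 CPM in the 30-week controls and 237, 469, 228 and 232 CPM in the exposed cells (0.76, standard error 0.213). Exposed replicate 2 was far above the other exposed samples there, and without it the log2 fold change was 0.43. The same sample was highest for the deubiquitinase gene USP16 (101 CPM against 52.8, 50.8 and 55.7 CPM), whose log2 fold change was 0.45 without it and 0.74 with it. SUMO3, a ubiquitin-like modifier, had a log2 fold change of 0.56 (standard error 0.108).

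SOD1 (chr21:31659693-31668931), the cytosolic superoxide dismutase, was not called. It was at 190 and 218 CPM in the 24 h controls, 346 and 316 in the 15-week controls and 370 and 373 in the 15-week exposed cells. The 30-week values were 344, 303 and 215 CPM in the controls and 243, 698, 365 and 228 CPM in the exposed cells (log2 fold change 0.42, standard error 0.292), and the groups overlapped. Without exposed replicate 2 the log2 fold change was -0.05, and without control replicate 3 it was 0.25.

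Of 14 metabolic enzymes 10 were called higher at 30 weeks (71.4%, near the 66.1% of all members) and 0 lower (median 0.63). GART (chr21:33503931-33542893), an enzyme of purine synthesis that carries out several steps of the pathway, was at 206 and 196 CPM in the 15-week controls and 228 and 207 in the exposed cells. After 30 weeks the gene was at 87.2, 95.8 and 91.8 CPM in the controls and 181, 182, 165 and 158 CPM in the exposed cells (0.91, standard error 0.103), after 0.11 (standard error 0.132) at 15 weeks. PFKL, the liver form of the glycolytic enzyme phosphofructokinase, had a log2 fold change of 0.62 (standard error 0.120), and PDXK, which makes active vitamin B6, one of 0.64 (standard error 0.136). CBS, which starts the conversion of homocysteine to cysteine, was at -0.40 (standard error 0.208) with overlapping samples and has a near-identical copy. Without exposed replicate 2 or control replicate 1 it was at -0.26 or -0.25.

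In cell division and genome maintenance 6 of 7 genes were called higher (85.7%, beside 66.1% of all members and 12.0% of all genes) and 0 lower (median 0.71). DONSON, which takes part in DNA replication, was at 35.0, 40.4 and 37.5 CPM in the 30-week controls and 67.0, 79.4, 63.1 and 66.0 CPM in the exposed cells (0.87, standard error 0.110). PCNT, a scaffold of the centrosome, was at 0.61 (standard error 0.170), and its groups overlapped through exposed replicate 2 at 93.0 CPM and control replicate 3 at 104 CPM. Among 10 transporters, channels and junction genes 5 were called higher and 1 lower. CXADR, an adhesion molecule of epithelial junctions, was apart at 15 weeks (33.6 and 26.7 CPM in controls, 46.1 and 45.8 CPM in exposed cells) and at 30 weeks (0.85, standard error 0.173).

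In membrane traffic, amyloid and extracellular proteases 8 of 11 genes were called higher (72.7%, near the 66.1% of all members) and 2 lower. APP (chr21:25880550-26171128) was at 219 and 237 CPM in the 24 h controls, 235 and 221 in the 24 h exposed cells, 220 and 224 in the 15-week controls and 260 and 287 in the 15-week exposed cells. At 30 weeks it was at 156, 174 and 231 CPM in the controls and 390, 247, 338 and 291 CPM in the exposed cells (log2 fold change 0.76, standard error 0.159). BACE2, a protease that cleaves APP, had a log2 fold change of 0.42 (standard error 0.120). PTTG1IP was at 522, 545 and 468 CPM in the 30-week controls and 697, 637, 704 and 680 CPM in the exposed cells (0.41, standard error 0.108). PRMT2, an arginine methyltransferase and the last member of the chromosome, had log2 fold changes of 0.28 at 15 weeks and 0.18 at 30 weeks, and LOC102723996, the first, of 0.12 and 1.39.

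A few members departed from the rest at 30 weeks. The strongest departures below the median were ADAMTS5 and ADAMTS1, neighbouring genes for proteases of the extracellular matrix, JAM2, a junction adhesion molecule, MAP3K7CL and SIM2, a developmental transcription factor. ADAMTS5 was at 0.554 and 0.735 CPM in the 24 h controls, 0.347 and 1.39 in the 15-week controls and 0.310 and 0.325 in the 15-week exposed cells. The 30-week values were 37.5, 27.8 and 29.2 CPM in the controls and 0.109, 0.561, 0.765 and 0.282 CPM in the exposed cells (log2 fold change -6.17, standard error 0.377). Its high values were thus found in the 30-week controls, and the exposed cells stayed near the levels of the earlier groups.

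ADAMTS1 was at 105, 104 and 88.8 CPM in the 30-week controls and 21.3, 28.4, 19.0 and 14.2 CPM in the exposed cells (-2.26, standard error 0.236), and at 12 to 27.9 CPM in all samples of 24 h and 15 weeks. MAP3K7CL was at 26.4, 26.6 and 22.7 CPM and at 4.74, 5.82, 4.28 and 3.49 CPM (-2.46, standard error 0.159). JAM2 was at 3.01, 4.30 and 4.87 CPM and at 0.398, 0.421, 0.417 and 0.739 CPM (-3.03, standard error 0.302). SIM2 was at 24.0, 23.5 and 27.3 CPM and at 7.90, 6.55, 7.58 and 7.04 CPM (-1.78, standard error 0.15), after at most 2.86 CPM at the earlier times. The 30-week controls, where these 5 genes were highest, are also the samples in which the skeletal muscle markers summed to 318 to 408 CPM; the part of that in these differences was not tested.

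Above the median, SLC37A1, a sugar-phosphate transporter of the endoplasmic reticulum, was at 0.387, 1.05 and 1.07 CPM in the 30-week controls and 6.63, 5.64, 6.29 and 5.88 CPM in the exposed cells (2.84, standard error 0.278). EVA1C, a membrane protein that binds heparin, was at 0.989, 1.16 and 1.65 CPM and at 8.18, 8.06, 10.4 and 6.65 CPM (2.71, standard error 0.229). TRPM2 was at 0.645, 0.181 and 0.215 CPM and at 2.46, 2.24, 1.81 and 1.23 CPM (2.52, standard error 0.398). In the 15-week controls SLC37A1 was at 2.97 and 2.80 CPM, EVA1C at 5.78 and 6.37 CPM and TRPM2 at 1.64 and 1.74 CPM, so all 3 were lower in the 30-week controls than in those of 15 weeks.

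Members that start head to head were set side by side. PIGP, an enzyme subunit of GPI-anchor synthesis, and TTC3, a ubiquitin ligase, start in opposite directions from overlapping windows, of which the TTC3 side is shown above. TTC3 was at 84.3, 113 and 113 CPM in the 30-week controls and 180, 186, 144 and 177 CPM in the exposed cells (0.73, standard error 0.128). PIGP was at 21.4, 20.2 and 12.4 CPM and at 13.6, 26.7, 20.3 and 15.9 CPM (0.09, standard error 0.242), with overlapping samples. For C21orf58 and PCNT the values were 0.45 and 0.61, and for GART and SON, which a second GART start places head to head, 0.91 and 0.62. These are all 3 divergent pairs with overlapping windows, and they were picked by position with their values known.

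Partners and paralogues on other chromosomes are not members and were tested in the same fit. Their lists too were chosen with earlier results of these data known. Of 41 such genes edgeR called 5 higher and 6 lower at 30 weeks (12.0% and 11.7% of all genes), and their median log2 fold change was 0.00, after 0.01 at 15 weeks. The 7 other chaperonin subunits had a median of 0.09 (0 called) beside the 0.76 of CCT8, or 0.43 without exposed replicate 2. The 5 other purine synthesis enzymes had a median of -0.17 (0 called) beside the 0.91 of GART. CCT8 and GART lie on the selected chromosome, so both contrasts are a description only. The 3 partners of U2AF1 had a median of -0.02 (0 called). Of 8 genes of interferon and interleukin-10 receptor signalling 1 was called higher, the kinase gene JAK2, and the median was 0.01. Among 18 paralogues of members, PFKP, APLP2, ITSN2 and SYNJ2 were called higher and SOD2, RUNX2, DYRK1B, HMGN2, BACH2 and BTG1 lower.

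Other rows of the chromosome lay outside the members. The 45 tested rows that are not protein-coding had a median of 0.31 at 15 weeks and 0.26 at 30 weeks, with 35 and 26 above 0. The 7 protein-coding genes left out by symbol had medians of 0.08 and 0.38, with 4 and 6 above 0. The 6 tested protein-coding genes under the count limit had medians of -0.16 and 0.27, with 2 and 3 above 0. Just inside the count limit were ABCG1 and KCNE1, with 10 reads or more in 7 samples and medians of 8 and 7 reads, and RIPPLY3, in 8 samples. Just outside it were B3GALT5 (6 samples, median 6 reads) and TMPRSS3 (5 samples, median 4 reads).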

How the data were processed

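RNA from BEAS-2B cells with or without PET-NPLs was sequenced from ribosome-depleted stranded libraries. According to the study's methods and the labels, the authors trimmed reads with Rfastp, dropped reads under 20 bases, aligned them to GRCh38 (hg38) and counted them per Entrez gene with featureCounts (Rsubread); the methods name versions of R and RStudio, and those of the read-processing tools and the counting of strand and multi-mapping reads are not given in the sources used here. The deposited values are raw counts with no normalization. Members and lists were chosen with earlier results of these data known. Genes were filtered with filterByExpr (16740 kept), TMM factors were computed, and the model was fitted in edgeR 4.0.16 (R 4.3.3, quasi-likelihood test, 1 mean for each of the 6 conditions, all 15 samples, Benjamini-Hochberg adjustment over all genes, threshold 0.05). limma 3.58.1, DESeq2 1.42.0 and sva 3.50.0 (2 surrogate variables) served as alternatives. The script was tested on simulated data. Log2 CPM used a prior count of 2. Near-identical copies (at least 98% identity over 50% of the gene) were found with minimap2 on GRCh38. Promoters came from RefSeq (GRCh38.p14), taking the window nearest the MANE Select start, or the first one listed where a gene had no such start. Of the members' 93 windows, 80 lay within 100 bases of that start. Named members were 39: the 8 with the highest mean CPM, the 5 highest and 5 lowest 30-week fold changes among those at 1 CPM or more, 26 genes fixed by symbol, and the first and last on the chromosome. Total counts were 23143202 to 31459990 per sample. Standard errors are on the log2 scale and were taken as the size of the log2 fold change over the square root of the test's F statistic. The p-values set each difference against only the spread between these samples.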

Additional observations from a re-analysis of the deposited data

Results flagged for a closer look

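For 7 named members 1 of the 4 exposed samples of 30 weeks lay far from the other 3, judged by the gap to its nearest neighbour as a share of the whole range of CPM and set against Dixon's 95% limit. Replicate 2 was the distant sample for CCT8 (0.964), RCAN1 (0.960), PFKL (0.908), RIPK4 (0.905), USP16 (0.902) and HMGN1 (0.886), above the others in CCT8, RCAN1, USP16 and HMGN1 and below them in PFKL and RIPK4. Replicate 4 was the distant one for JAM2 (0.935). Chance alone picks out about 1 in 20 such groups, and 39 members were examined.

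For 12 of the 39 named members edgeR called the difference between the exposure effects at 15 and 30 weeks (adjusted p below 0.05 over all genes tested). It called 2.66% of all genes higher and 2.08% lower for that difference. Over all members the number called higher was 8, 24 and 7 without exposed replicates 1, 2 and 3 of 30 weeks. The shares of all genes called in those fits are not given here. Of the 12 named members, 9 were named for being among the 5 highest or 5 lowest 30-week fold changes. The chromosome itself was selected on these values, so the calls are a description and no independent evidence. The log2 fold change at 30 weeks less that at 15 weeks was -4.72 for ADAMTS5, -3.0 for JAM2, -1.99 for MAP3K7CL, -1.80 for SIM2, -1.77 for ADAMTS1 and -1.02 for RUNX1. It was 2.64 for TRPM2, 2.45 for SLC37A1, 2.22 for EVA1C, 1.76 for RIPK4, 0.79 for GART and 0.61 for ETS2. The 15-week samples were in one labelled batch and the 30-week samples in another, each with its own controls, so the difference cannot be told apart from a batch that acts on exposed and control cells unequally.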

How the results depend on the processing

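The members' median log2 fold change kept its sign and lay between 0.59 and 0.64 at 30 weeks, 0.22 and 0.27 at 15 weeks, and 0.34 and 0.40 for the difference of the time points over all alternatives tried; at 24 h it lay between -0.04 and 0.04. Leaving out 1 sample at a time gave -0.036 to 0.035 at 24 h, 0.135 to 0.226 for controls and 0.45 to 0.5 for exposed cells from 24 h to 15 weeks, and -0.407 to -0.296 and 0.037 to 0.104 from 15 to 30 weeks. From 24 h to 15 weeks upper-quartile scaling gave 0.274 in controls and 0.509 in exposed cells, and members of at least 10 CPM gave 0.154 in controls. From 15 to 30 weeks the median in exposed cells was 0.036 with at least 10 counts in every sample, 0.142 after thinning to the smallest library and 0.013 for members of at least 10 CPM. The number of members called higher at 15 weeks, 0 in the main analysis, was 1 with DESeq2, with limma-voom and surrogate variables, and without the filter, 21 with each time point fitted alone, and 0 to 1 when samples were left out in turn. At 30 weeks it was 69 to 83 when samples were left out in turn. For fits without 1 sample and for the replicate block below, the shares of all genes called are not given here. Whether such counts moved for the members alone or for all genes thus cannot be told. SOD1 changed sign at 30 weeks without exposed replicate 2, and its log2 fold change ran from -0.046 to 0.605 when samples were left out in turn. The causes were not tested.

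Replicate numbers were not taken to pair the samples. The correlation between same-numbered control and exposed samples was -0.118, 0.303 and 0.098 at 30 weeks, where pairs of unlike number ran from -0.481 to 0.359. It was -0.06 at 24 h and 0.029 at 15 weeks. With 2 samples in a group every pairing gives the same size of correlation, so these 2 time points cannot decide it. With a replicate block the medians were -0.015, 0.241 and 0.619 at the 3 times and 0.373 for the difference, and 79 members were called higher at 30 weeks. The block lies within a time point and was not used for the steps over time, nor was the fit of each time point alone. Members at a few reads, such as KCNE1, carry wide errors at this depth.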
